A study of Mus musculus with 12 samples.

Results

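Integrins are the cell surface receptors that hold a cell to its matrix, and laminins are the trimeric glycoproteins that many of them bind. Their genes were followed in MIN6, an insulin-secreting line grown from a mouse insulinoma and widely used in place of primary beta cells. Members were all genes with a single symbol on the array whose symbol names an integrin alpha chain (Itga with a number or letters), an integrin beta chain (Itgb with a number only) or a laminin alpha, beta or gamma chain. They numbered 36 of 19938 genes: 18 integrin alpha chains, 8 integrin beta chains and 10 laminin chains. RNA had been measured on 12 Affymetrix arrays in 4 groups. The DC arrays labelled Hes3 siRNA (4 arrays, numbered 1, 2, 5 and 7) and the DC scrambled arrays (4 arrays, numbered 1 to 4) came from cells without serum at 5% oxygen, the defined conditions. The CC arrays labelled Hes3 siRNA and the CC scrambled arrays (2 arrays each) came from cells with serum at 20% oxygen, the classic conditions. All cells had first been kept in serum medium, plated at 50000 per well, and given either siRNA at 2 µM with the same transfection reagent. RNA was taken 12 to 24 hours after transfection, and no untransfected group was analysed here. Hes3, the target of the siRNA, encodes a basic helix-loop-helix repressor of transcription. The cells are a single tumour-derived line, and DC and CC differ in serum and oxygen at once, so that the effects of these cannot be told apart.

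An integrin is a pair of 1 alpha and 1 beta chain, and the pair sets the ligand. Chains encoded by Itga3, Itga6 and Itga7 bind laminins, those of Itga1, Itga2, Itga10 and Itga11 bind collagens, and those of Itgav, Itga5, Itga8 and Itga2b bind ligands with an arginine-glycine-aspartate motif, such as fibronectin and vitronectin. Itgb1 encodes the beta chain shared by most of these receptors, while Itgb5, Itgb6 and Itgb8 pair with the Itgav chain. Each laminin joins an alpha, a beta and a gamma chain and forms a sheet in the basement membrane, which nidogens and perlecan link to collagen IV. In islets the basement membrane is made largely by blood vessel cells, and beta cells bind its laminins through integrins that contain the Itgb1 chain, a contact known to favour insulin expression and survival.

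Values are log2 signals, so a difference of 1 is a doubling. All samples belonged to 1 experiment, so the p-values capture only the spread among these samples, which may be technical, and the number of arrays limits the precision. Array medians ran from 7.78 to 7.96, and the first principal component of all genes held 61.0% of the variance. Arrays 1 and 5 of the DC arrays labelled Hes3 siRNA stood apart on it with scores of 34.8 and 29.2, against 15.6 and 12.8 for arrays 2 and 7. At the other end CC scrambled array 2 scored -32.7. The Hes3 probe set read 7.37, 7.36, 7.38 and 7.25 in DC arrays labelled Hes3 siRNA and 7.10, 7.24, 7.19 and 7.22 in DC scrambled arrays, and 7.22 and 7.23 in CC arrays labelled Hes3 siRNA and 7.23 and 6.82 in CC scrambled arrays. Its log2 fold change over scrambled was 0.15 ± 0.0767 in DC and 0.20 ± 0.109 in CC (SE; limma adjusted p = 0.114 and 1). No decrease of Hes3 was thus seen under the Hes3 siRNA label. With a mean of 7.22, it lay under both marks of background used below, so that a loss of Hes3 mRNA may have been missed. The labels were therefore not borne out by it. No direction below is therefore read as an effect of less Hes3 mRNA, and groups are named by their labels. Of 11 beta cell markers measured, 10 lay above the 40th percentile of signal, up to a mean of 13.75 for Iapp (amylin). Only Slc2a2 lay below it, at 7.65. Such markers speak to the cell type and cannot tell MIN6 from other beta cell lines.

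Few of the 36 members gave a strong signal. A gene's signal rank is used here only to mark those near background, since probe sets differ in brightness and do not rank transcripts against each other. Under the 40th percentile of all genes (7.67) lay 20 members, and 19 lay below 7.59, the 95th percentile of 1207 olfactory, vomeronasal and trace amine receptor genes, which are not expected in these cells. By role, the strong signals came from the chains of a few receptors and 2 laminin chains. Itgav, the alpha chain of the vitronectin receptors (probe set 10473281), had a mean of 12.08 over the 12 arrays, Itgb1 (10576661) 10.63, Itgb5 (10435305) 10.58, the laminin alpha chain Lama5 (10490384) 10.04 and the laminin gamma chain Lamc1 (10358816) 9.65. These 5 members were in the top 4984 genes by signal, while 24 members lay below the median gene. Among laminin-binding alpha chains, Itga3 (10390117) had 8.68, Itga7 8.09 and Itga6 7.46. No laminin beta chain passed the median gene: Lamb2 (10588942) had 8.04, Lamb3 7.8 and Lamb1 7.46. Integrin alpha chains known from leukocytes ran from 6.46 for Itgae to 7.70 for Itgal, with 4 of the 5 under the 40th percentile.

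**Figure D1:**
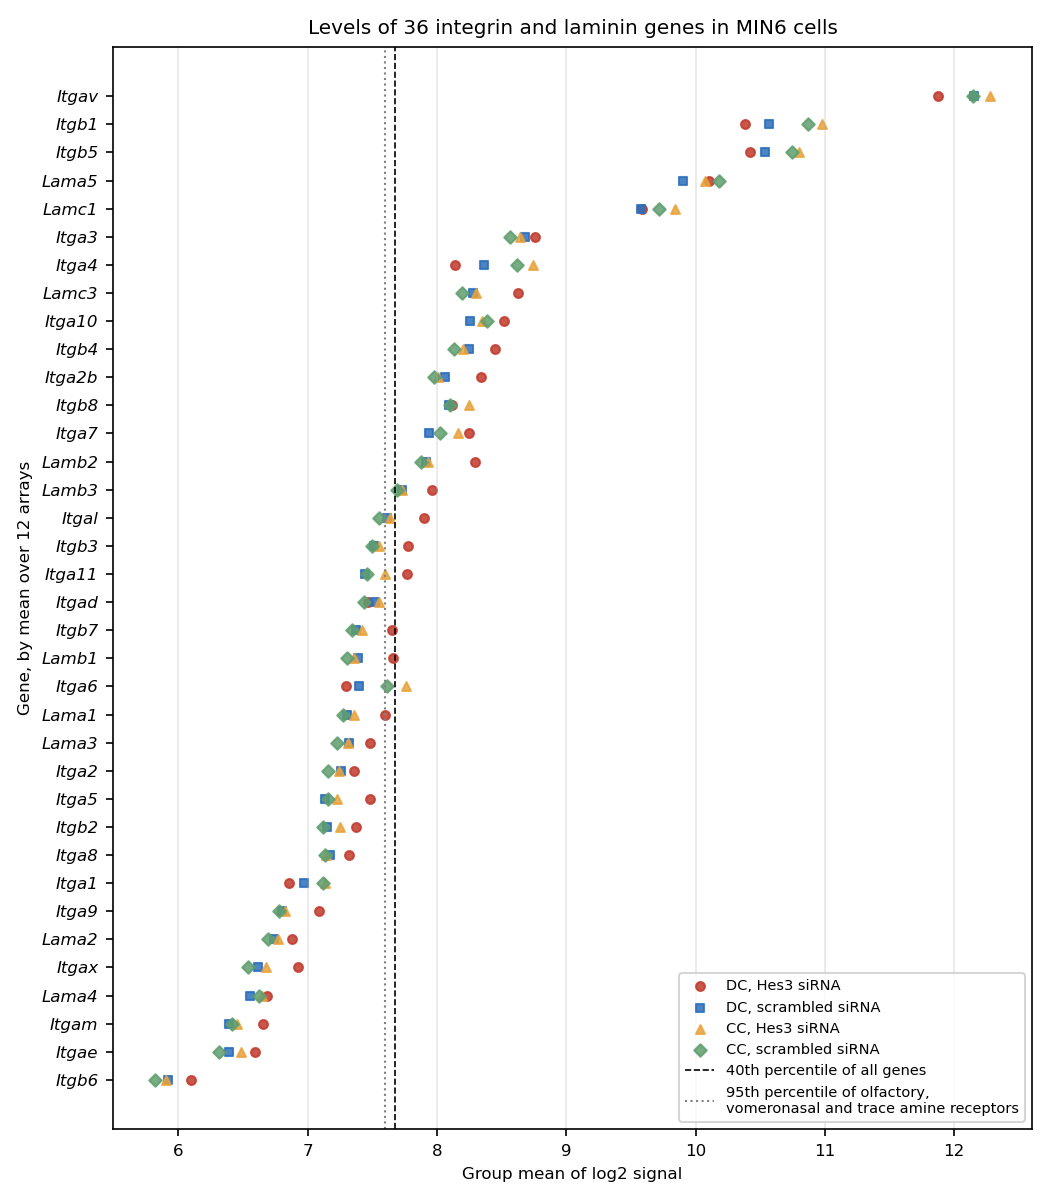
Mean log2 signal of each of the 36 members in each of the 4 groups (points), with members from the highest to the lowest mean over the 12 arrays, set against the 40th percentile of all genes (7.67) and the 95th percentile of receptor genes not expected in these cells (7.59). Itgav, Itgb1, Itgb5, Lama5 and Lamc1 stand well to the right, while 20 members lie under the 40th percentile.

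Shown for reference are promoters of 4 integrin genes lower in DC than in CC with the Hes3 siRNA label (below). The promoter of the laminin chain with the largest increase in the siRNA comparison in DC is shown too. RefSeq promoters (GRCm38.p6, 250 bases before to 50 after the start) matched 23 of the 36 members. Capitals mark the GC box GGGCGG, a site read by Sp family factors, searched on both strands (CCGCCC on the printed strand is the reverse match). Each is printed 5′ to 3′ on the plus strand.
Itgb1, chr8:128685404-128685703: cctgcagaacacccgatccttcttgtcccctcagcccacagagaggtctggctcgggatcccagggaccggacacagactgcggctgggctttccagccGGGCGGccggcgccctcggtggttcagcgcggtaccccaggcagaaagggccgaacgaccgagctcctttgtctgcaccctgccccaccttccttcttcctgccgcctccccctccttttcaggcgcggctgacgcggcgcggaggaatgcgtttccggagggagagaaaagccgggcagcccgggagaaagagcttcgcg
Itga4, chr2:79255176-79255475: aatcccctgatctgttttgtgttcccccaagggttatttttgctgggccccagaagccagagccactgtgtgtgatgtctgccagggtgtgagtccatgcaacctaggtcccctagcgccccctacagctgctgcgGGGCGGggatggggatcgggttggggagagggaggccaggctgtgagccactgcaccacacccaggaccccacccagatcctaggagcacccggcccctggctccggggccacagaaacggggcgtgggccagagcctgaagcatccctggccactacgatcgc
Itgav, chr2:83724147-83724446: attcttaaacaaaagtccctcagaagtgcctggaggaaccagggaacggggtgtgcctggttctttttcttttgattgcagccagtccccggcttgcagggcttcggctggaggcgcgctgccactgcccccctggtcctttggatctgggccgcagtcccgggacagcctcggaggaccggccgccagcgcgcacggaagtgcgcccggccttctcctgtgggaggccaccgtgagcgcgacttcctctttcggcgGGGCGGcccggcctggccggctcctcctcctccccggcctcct
Itgb5, chr16:33829415-33829714: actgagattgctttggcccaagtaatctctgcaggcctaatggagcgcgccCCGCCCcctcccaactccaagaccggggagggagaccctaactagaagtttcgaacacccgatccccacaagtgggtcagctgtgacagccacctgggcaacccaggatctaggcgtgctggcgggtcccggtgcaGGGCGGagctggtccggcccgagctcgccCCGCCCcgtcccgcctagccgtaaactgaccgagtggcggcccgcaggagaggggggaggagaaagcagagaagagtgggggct
Lamb2, chr9:108479612-108479911: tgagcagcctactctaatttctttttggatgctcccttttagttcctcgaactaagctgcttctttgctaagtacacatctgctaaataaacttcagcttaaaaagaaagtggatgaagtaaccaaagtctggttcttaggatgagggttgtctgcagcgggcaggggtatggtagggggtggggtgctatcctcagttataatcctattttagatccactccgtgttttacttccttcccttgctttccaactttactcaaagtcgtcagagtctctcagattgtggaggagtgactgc
The windows of Itgb1, Itga4 and Itgav each held 1 GC box, that of Itgb5 held 3, and that of Lamb2 held 0. Over members, 11 of the 23 had at least 1, against 35.7% of all 32851 promoters in the table. The core of the hypoxia element (ACGTG or GCGTG, both strands) was found in 7 of 23 members and 43.8% of all promoters. The N box CACNAG, a site bound by Hes proteins, was found in 5 of 23 and 42.5%. The TATA box TATAAA was found in 0 of 23 and 13.6%. These matches describe letters in the window and say nothing of binding.

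DC was compared with CC to ask what the change to serum-free medium at lower oxygen did to the cells. In the arrays labelled Hes3 siRNA, 7 members were lower in DC and 10 were higher. Itgb1, the shared beta chain, fell by 33.7%, and Itga4, an alpha chain for fibronectin and VCAM1 (probe set 10473125), fell by 34.2%. The other lower members were the laminin-binding chain Itga6, Itgav and its partner Itgb5, the collagen-binding chain Itga1, and Lamc1, the gamma chain of most laminins. Lamb1, Lamb2, Lamb3, Lamc3 and 6 integrin chains were higher, by at most 0.36 on the log2 scale. Of these higher members, Itga5, Itga9, Itgax and Lamb1 lay under the 40th percentile of signal. In this comparison 40.1% of all genes passed, 21.2% higher and 18.8% lower, against 27.8% and 19.4% of members. With scrambled siRNA 0 members passed in limma, where 8.54% of all genes did, and 4 had an unadjusted p under 0.05. The shares of all genes were 3.09% higher and 5.45% lower. At most 1 member passed there when any single array was left out.

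Of the integrin beta chains, Itgb1 showed the largest difference. It read 10.31, 10.51, 10.24 and 10.50 in DC arrays labelled Hes3 siRNA and 11.0 and 10.96 in CC arrays labelled Hes3 siRNA. All 4 DC arrays lay below both CC arrays, a log2 fold change of -0.59 ± 0.0897 (SE; limma adjusted p = 0.000208). In the scrambled arrays Itgb1 read 10.64, 10.52, 10.51 and 10.61 in DC scrambled arrays and 10.76 and 10.97 in CC scrambled arrays. The groups did not overlap there either, but the difference of -0.30 ± 0.0897 (SE; 4 arrays against 2) missed the threshold with a limma adjusted p of 0.0529. Under 22 alternative treatments of the data, Itgb1 passed in 22 with Hes3 siRNA and in 8 with scrambled siRNA, always with a lower value in DC. Itgb5, which pairs with Itgav, read 10.39, 10.46, 10.35 and 10.48 in DC arrays labelled Hes3 siRNA and 10.80 and 10.79 in CC arrays labelled Hes3 siRNA. Its arrays were again apart, by -0.38 ± 0.0808 (SE; limma adjusted p = 0.00302). With scrambled siRNA it read 10.39, 10.60, 10.52 and 10.64 in DC scrambled arrays and 10.67 and 10.82 in CC scrambled arrays, a difference of -0.21 ± 0.0808 (SE; limma adjusted p = 0.143). DC scrambled array 1 was the lowest of these, and the groups did not overlap.

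Itgb4, which pairs with the Itga6 chain in the hemidesmosomes of epithelia, differed the other way. Its signals were 8.57, 8.36, 8.51 and 8.37 in DC arrays labelled Hes3 siRNA and 8.11 and 8.29 in CC arrays labelled Hes3 siRNA, with a log2 fold change of 0.25 ± 0.0852 (SE; limma adjusted p = 0.0323). They were 8.22, 8.23, 8.31 and 8.22 in DC scrambled arrays and 8.23 and 8.03 in CC scrambled arrays, a difference of 0.12 ± 0.0852 (SE; limma adjusted p = 0.535). The first pair of groups did not overlap and the second did. The remaining beta chains did not pass in either comparison. With Hes3 siRNA, Itgb7, a leukocyte chain, had 0.23 ± 0.0902 (SE; limma adjusted p = 0.0537), the platelet chain Itgb3 had 0.22 ± 0.0883 (limma adjusted p = 0.0560), and Itgb8, an Itgav partner, had -0.13.

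Among alpha chains, Itga4 was the lowest in DC relative to CC. It read 8.05, 8.19, 8.08 and 8.24 in DC arrays labelled Hes3 siRNA and 8.81 and 8.68 in CC arrays labelled Hes3 siRNA. The highest DC array was below the lowest CC array, with a log2 fold change of -0.60 ± 0.0813 (SE; limma adjusted p = 8.12e-05). With scrambled siRNA it read 8.27, 8.49, 8.33 and 8.37 in DC scrambled arrays and 8.64 and 8.60 in CC scrambled arrays, again apart, with a difference of -0.25 ± 0.0813 (SE; limma adjusted p = 0.0677). Its close relative Itga9, which binds tenascin C and osteopontin, did not share this direction. Itga9 read 7.11, 7.07, 7.19 and 6.99 in DC arrays labelled Hes3 siRNA and 6.82 and 6.83 in CC arrays labelled Hes3 siRNA, a log2 fold change of 0.26 ± 0.0806 (SE; limma adjusted p = 0.0199), with DC above CC in every array. It differed by 0.03 with scrambled siRNA (limma adjusted p = 0.915).

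The laminin-binding alpha chains differed among themselves. Itga6 (probe set 10472820) read 7.30, 7.15, 7.24 and 7.48 in DC arrays labelled Hes3 siRNA and 7.94 and 7.57 in CC arrays labelled Hes3 siRNA, a log2 fold change of -0.46 ± 0.113 (SE; limma adjusted p = 0.00653). Its 2 CC arrays were far apart from each other, and both were above the DC arrays. With scrambled siRNA it read 7.33, 7.51, 7.46 and 7.29 in DC scrambled arrays and 7.49 and 7.74 in CC scrambled arrays, and the groups overlapped (-0.22 ± 0.113 (SE; limma adjusted p = 0.317)). Itga6 lay under the 40th percentile of signal in spite of passing the test. Itga3 had 0.12 with Hes3 siRNA and 0.12 with scrambled siRNA (limma adjusted p = 0.239 and 0.535), and Itga7, known from muscle, had 0.09 and -0.08, with neither past the test.

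Itgav, the alpha chain with the strongest signal, was lower in DC with the Hes3 siRNA label. It read 11.86, 11.95, 11.78 and 11.93 in DC arrays labelled Hes3 siRNA and 12.31 and 12.25 in CC arrays labelled Hes3 siRNA, a log2 fold change of -0.40 ± 0.0719 (SE; limma adjusted p = 0.000854). In the scrambled arrays it read 12.13, 12.17, 12.09 and 12.24 in DC scrambled arrays and 12.14 and 12.16 in CC scrambled arrays, and the groups overlapped (0.01 ± 0.0719 (SE; limma adjusted p = 0.978)). The test of the difference between both labels gave -0.41 ± 0.102 (SE; limma adjusted p = 0.177), so that the comparisons were not shown to differ. Of the other chains with the same ligand motif, Itga2b, the platelet fibrinogen receptor chain, read 8.43, 8.32, 8.37 and 8.23 in DC arrays labelled Hes3 siRNA and 8.02 and 8.0 in CC arrays labelled Hes3 siRNA. Every DC array was above both CC arrays (0.33 ± 0.0902 (SE; limma adjusted p = 0.0122)). Itga5, the fibronectin receptor chain, read 7.61, 7.38, 7.46 and 7.49 in DC arrays labelled Hes3 siRNA and 7.26 and 7.19 in CC arrays labelled Hes3 siRNA, also without overlap (0.26 ± 0.0848 (SE; limma adjusted p = 0.0264)). Itga8 did not pass (0.18, limma adjusted p = 0.126). With scrambled siRNA, Itga2b, Itga5 and Itga8 had 0.08, -0.02 and 0.04.

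Of the collagen-binding chains, only Itga1 passed with Hes3 siRNA. It read 6.87, 6.69, 7.03 and 6.84 in DC arrays labelled Hes3 siRNA and 7.20 and 7.08 in CC arrays labelled Hes3 siRNA, with DC below CC in every array (-0.28 ± 0.0986 (SE; limma adjusted p = 0.0361)). Itga1 is a dim probe set, at a mean of 6.98. Itga2, Itga10 and Itga11 had 0.12, 0.17 and 0.17, with none past the test. Of the 5 leukocyte chains, Itgal (0.26, limma adjusted p = 0.0203) and Itgax (0.24, 0.0445) were higher in DC. Itgam, Itgae and Itgad did not pass.

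The laminin beta chains were all higher in DC with the Hes3 siRNA label. Lamb2 read 8.44, 8.13, 8.36 and 8.24 in DC arrays labelled Hes3 siRNA and 7.89 and 7.97 in CC arrays labelled Hes3 siRNA, a log2 fold change of 0.36 ± 0.0976 (SE; limma adjusted p = 0.0111). Lamb1, the beta chain of many basement membrane laminins (probe set 10395163), read 7.85, 7.55, 7.72 and 7.51 in DC arrays labelled Hes3 siRNA and 7.37 and 7.34 in CC arrays labelled Hes3 siRNA, a log2 fold change of 0.30 ± 0.0900 (SE; limma adjusted p = 0.0180). In both genes DC and CC did not overlap, and DC array 1 was the highest of all. Lamb3, the beta chain of a skin laminin, had 0.23 ± 0.0836 (SE; limma adjusted p = 0.0408). With scrambled siRNA these 3 had 0.08 (Lamb1), 0.04 (Lamb2) and 0.04 (Lamb3), none past the test.

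The gamma chains went in opposite directions with the Hes3 siRNA label. Lamc1 read 9.63, 9.54, 9.48 and 9.70 in DC arrays labelled Hes3 siRNA and 9.87 and 9.82 in CC arrays labelled Hes3 siRNA, with DC below CC (-0.26 ± 0.0814 (SE; limma adjusted p = 0.0224)). Lamc3 (probe set 10471216) read 8.83, 8.51, 8.68 and 8.50 in DC arrays labelled Hes3 siRNA and 8.33 and 8.27 in CC arrays labelled Hes3 siRNA, with DC above CC (0.33 ± 0.0876 (SE; limma adjusted p = 0.0104)). Neither passed with scrambled siRNA, at -0.14 for Lamc1 and 0.09 for Lamc3. No alpha chain passed in either comparison. Lama5, the main alpha chain of adult basement membranes, had 0.03 ± 0.100 with Hes3 siRNA and -0.28 ± 0.100 with scrambled siRNA (SE; limma adjusted p = 0.798 and 0.112). Its scrambled arrays read 9.70, 10.02, 9.99 and 9.91 in DC scrambled arrays and 10.33 and 10.04 in CC scrambled arrays, without overlap. The alpha chains Lama1 to Lama4 ran from 0.04 (Lama4) to 0.24 (Lama1, limma adjusted p = 0.0501) with Hes3 siRNA.

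Markers of other cell types were counted for the same comparison with the Hes3 siRNA label. Of leukocyte markers 2 of 9 were higher and 1 lower (Cd68, -0.66 ± 0.0988 (SE; limma adjusted p = 0.000198)), with summed linear signals of 1625 to 1749 in DC arrays labelled Hes3 siRNA and 1784 to 1806 in CC arrays labelled Hes3 siRNA. Higher, with 0 lower, were 2 of 4 platelet, 2 of 10 fibroblast, 2 of 8 endothelial, 2 of 6 hemidesmosome and squamous, and 1 of 4 duct markers. Of all genes 21.2% were higher and 18.8% lower, and of those below the median signal 29.4% and 3.12%. Without DC arrays 1 and 5 labelled Hes3 siRNA, 1 endothelial and 1 hemidesmosome and squamous marker were higher, and 1 leukocyte marker was lower. In the platelet, fibroblast and duct lists 0 passed in limma then. The fibroblast sums were 2398 to 2808 in DC arrays labelled Hes3 siRNA and 2237 to 2242 in CC arrays labelled Hes3 siRNA, and the endothelial sums were 1173 to 1340 in DC arrays labelled Hes3 siRNA and 1095 to 1143 in CC arrays labelled Hes3 siRNA. Platelet sums were 657 to 780 in DC arrays labelled Hes3 siRNA and 563 to 585 in CC arrays labelled Hes3 siRNA. The part of these lists in the differences of members was not tested.

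The higher and lower members differed in how far they rested on single arrays. Without DC arrays 1 and 5 labelled Hes3 siRNA, all but Lamc1 of the 7 lower members still passed. None of the 10 higher members did, although all 17 kept their sign. Of all genes 18.2% passed there, with 32.2% of these calls higher, and 28.5% passed without array 5 alone. Without CC array 1 or CC array 2 labelled Hes3 siRNA, 4 and 5 members were lower and 1 and 0 were higher, where 17.1% and 11.8% of all genes passed, and without DC array 5 labelled Hes3 siRNA the counts were 6 lower and 5 higher. Itgb1, Itga4, Itga6 and Itga1 remained lower under both quantile and cyclic loess normalization, and Itgb1 and Itga4 were the members that passed a minimum of 1.5-fold. Centring arrays on their median moved the median of all genes to -0.02, against 0.09 as deposited, and left 1 of the 10 higher members (Itga2b) and all 7 lower ones. Signal level also went with direction: with all genes in 4 equal groups from dim to bright, median log2 fold changes were 0.15, 0.19, -0.02 and -0.19. Among genes below the median signal 29.4% were higher and 3.12% lower, against 7 and 2 (Itga6 and Itga1) of 24 members. Among genes above it 13% were higher and 34.5% lower, against 3 and 5 of 12 members. The arrays of DC and CC did not overlap for 26 members with Hes3 siRNA, against 61.8% of all genes, and for 5 members with scrambled siRNA, against 27.9%.

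**Figure D2:**
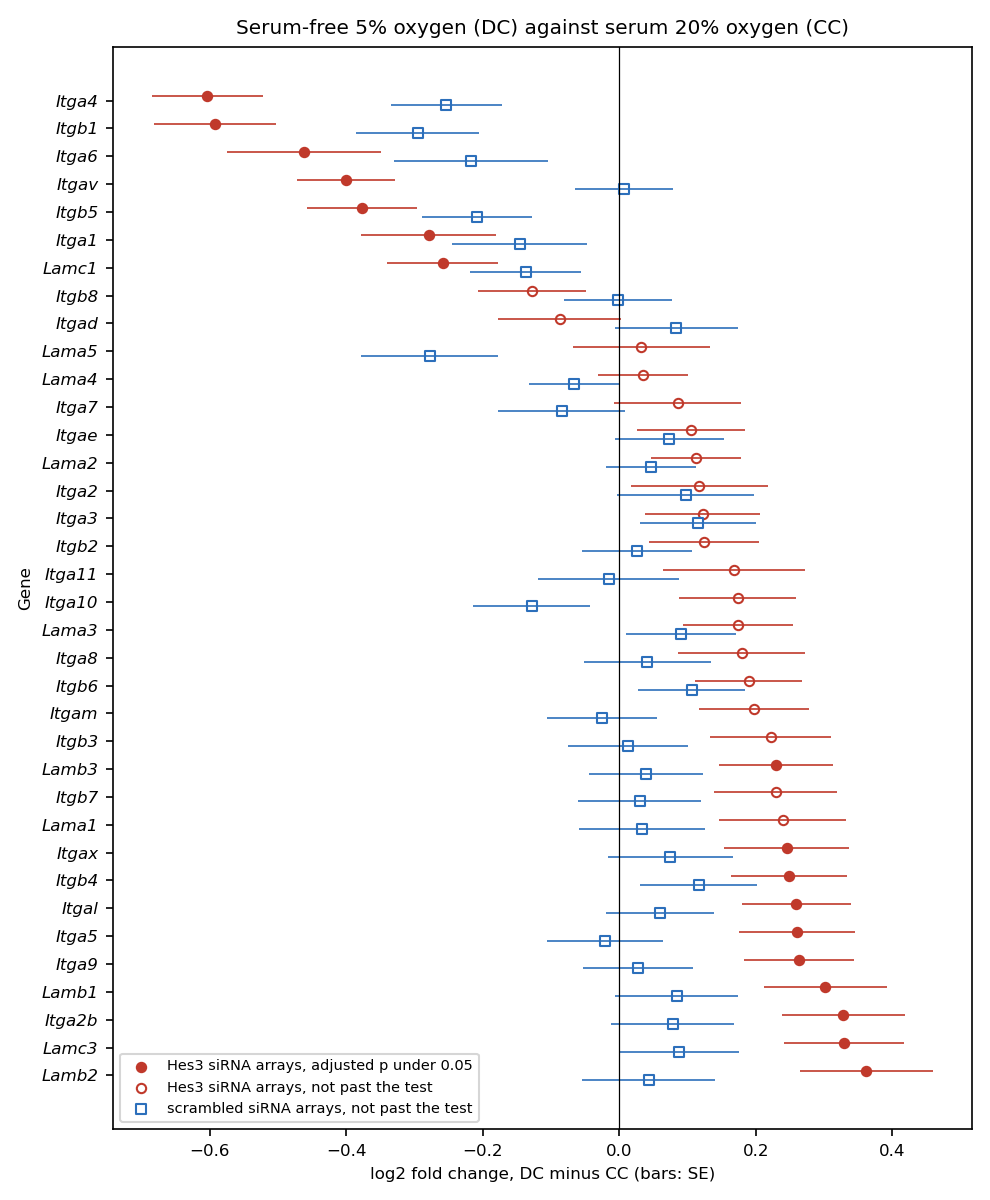
Log2 fold change of DC over CC for each of the 36 members (horizontal axis; bars are SE), with Hes3 siRNA as circles, filled where they passed the test, and scrambled siRNA as open squares. Itga4 and Itgb1 are the lowest with Hes3 siRNA (-0.60 and -0.59), and Itgav is at -0.40 with Hes3 siRNA and 0.01 with scrambled siRNA.

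The comparisons of DC with CC under the 2 labels share no array. Across the 36 members their log2 fold changes had a Pearson correlation of 0.743, a description across genes, which are not independent and share the serum and oxygen change. Both were below 0 for 7 members and above 0 for 20, and 9 had opposite signs. In 27 members the signs were the same and the difference was larger with Hes3 siRNA. Medians over all genes were also further from 0 under that label. For all genes below the median signal, the median log2 fold change was 0.17 with Hes3 siRNA and 0.04 with scrambled siRNA. For all genes above it, the medians were -0.10 and -0.03. The larger differences were thus not shown to be particular to members. The test of the difference between both comparisons passed for 0 of 36 members in limma, and 7 had an unadjusted p under 0.05. Among all genes 0% passed that test.

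Hes3 siRNA and scrambled siRNA were next compared within the serum-free medium. Here 21 members had a higher signal under the Hes3 siRNA label, 3 had a lower one, and 12 did not pass. The 3 lower ones were Itgav, Itgb1 and Itga4. The higher ones included all 3 laminin beta chains, Lamc3, 5 of 8 integrin beta chains and 4 of 5 leukocyte alpha chains, each by at most 0.37 on the log2 scale. Many were near background. Itgb3, Itga11, Itgb7, Lamb1, Lama1, Itga5, Itgb2, Itga9, Lama2, Itgax, Itgam, Itgae and Itgb6, all higher, lay under the 40th percentile of signal. Among all genes 47.2% passed, 28.9% higher and 18.3% lower, so that a large share of the array moved. The median log2 fold change was 0.21 over members and 0.06 over all genes. Without DC arrays 1 and 5 labelled Hes3 siRNA, 0 members passed in limma, where all 24 kept their sign and 1.66% of all genes passed.

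Among the laminins, Lamb2, which forms laminins of synapses, kidney and vessels, had the largest difference. It read 8.44, 8.13, 8.36 and 8.24 in DC arrays labelled Hes3 siRNA and 7.87, 7.81, 7.97 and 8.02 in DC scrambled arrays. Each DC array labelled Hes3 siRNA was above every DC scrambled array, by 0.37 ± 0.0797 (SE; limma adjusted p = 0.00456). Lamc3 read 8.83, 8.51, 8.68 and 8.50 in DC arrays labelled Hes3 siRNA and 8.21, 8.33, 8.27 and 8.30 in DC scrambled arrays, also without overlap (0.35 ± 0.0716 (SE; limma adjusted p = 0.00397)). For both genes array 1 was the highest of the arrays labelled Hes3 siRNA. Lamb1 read 7.85, 7.55, 7.72 and 7.51 in DC arrays labelled Hes3 siRNA and 7.34, 7.47, 7.38 and 7.38 in DC scrambled arrays, a log2 fold change of 0.27 ± 0.0735 (SE; limma adjusted p = 0.0113). Lamb3 and Lama1, an alpha chain of the early embryo, had 0.23 ± 0.0682 and 0.29 ± 0.0754 (SE; limma adjusted p = 0.0152 and 0.00877). Lama2, the alpha chain of muscle laminin, had 0.14 (limma adjusted p = 0.0419), a difference that turned to -0.03 under quantile and -0.05 under cyclic loess normalization. Lama3, Lama4 and Lama5 missed the threshold with adjusted p between 0.0507 and 0.0586, and Lamc1 had 0.00. Lama5 read 10.05, 10.02, 10.23 and 10.10 in DC arrays labelled Hes3 siRNA and 9.70, 10.02, 9.99 and 9.91 in DC scrambled arrays, and Lamc1 read 9.63, 9.54, 9.48 and 9.70 in DC arrays labelled Hes3 siRNA and 9.46, 9.70, 9.54 and 9.63 in DC scrambled arrays. The lowest Lama5 array labelled Hes3 siRNA and the highest scrambled array both round to 10.02 and did not cross, while the arrays of Lamc1 overlapped.

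**Figure D3:**
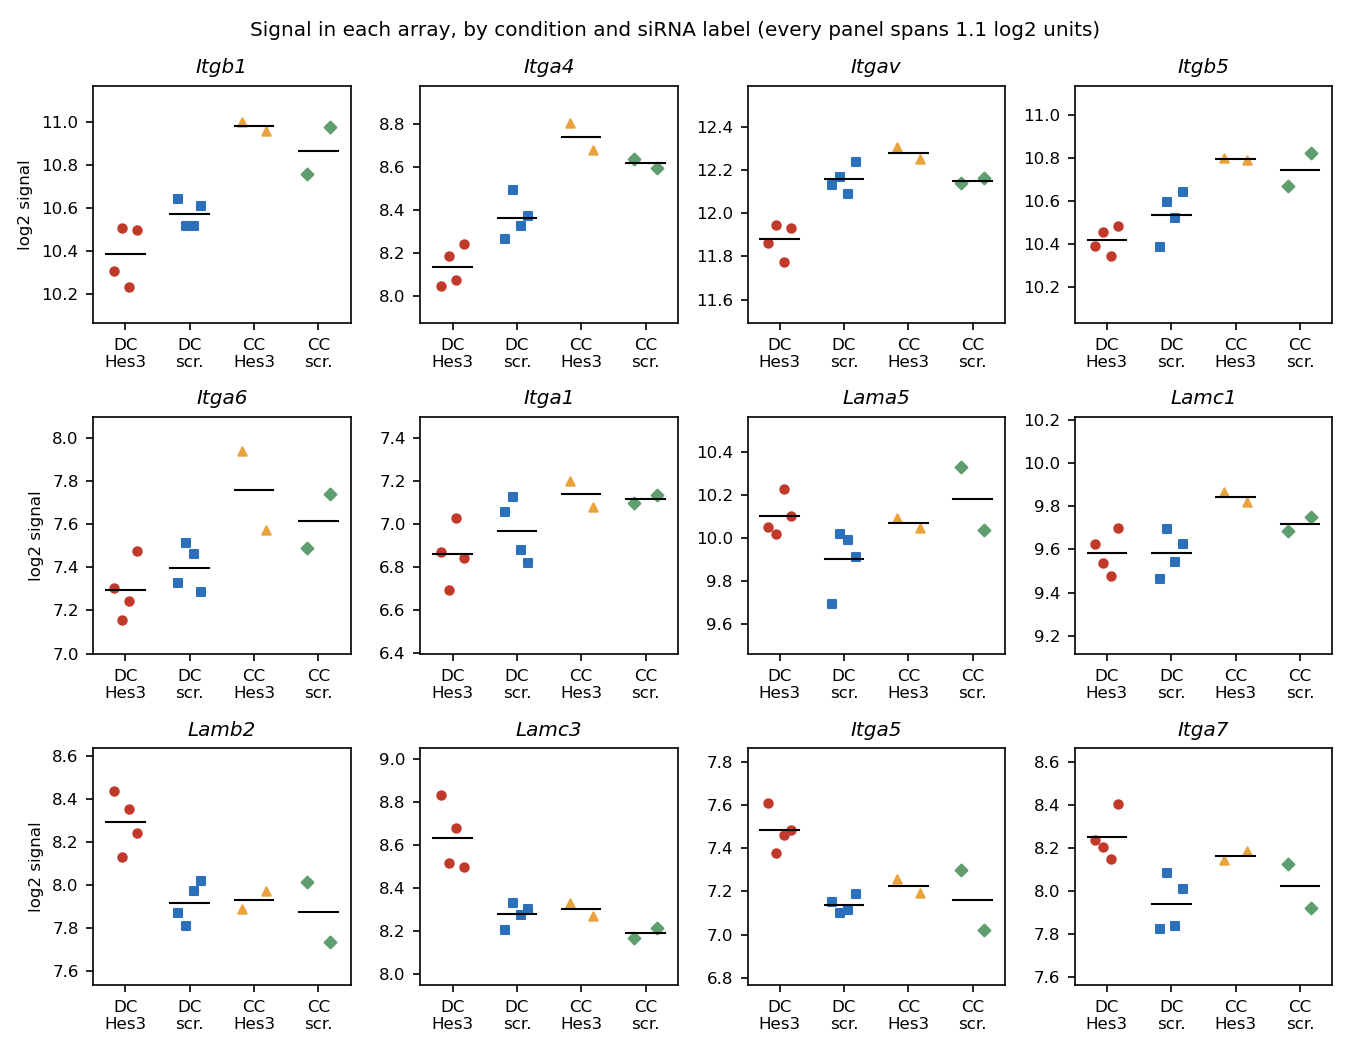
Log2 signal of single arrays for 12 members (points; lines are group means), with DC arrays labelled Hes3 siRNA left of the DC scrambled arrays, and the same for CC. Itgb1 and Itga4 step down in DC, and Lamb2 and Lamc3 are highest in DC arrays labelled Hes3 siRNA, most of all in array 1.

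Of the alpha chains with the fibronectin and vitronectin motif, Itgav went down and Itga5 and Itga2b went up. Itgav read 11.86, 11.95, 11.78 and 11.93 in DC arrays labelled Hes3 siRNA and 12.13, 12.17, 12.09 and 12.24 in DC scrambled arrays. These groups did not overlap (-0.28 ± 0.0587 (SE; limma adjusted p = 0.00443)). Itga5 read 7.61, 7.38, 7.46 and 7.49 in DC arrays labelled Hes3 siRNA and 7.15, 7.10, 7.11 and 7.19 in DC scrambled arrays, with the arrays labelled Hes3 siRNA above the others (0.35 ± 0.0692 (SE; limma adjusted p = 0.00375)). Itga2b read 8.43, 8.32, 8.37 and 8.23 in DC arrays labelled Hes3 siRNA and 7.97, 8.11, 8.12 and 8.03 in DC scrambled arrays, also apart (0.28 ± 0.0736 (SE; limma adjusted p = 0.00957)). Itga8 did not pass (0.15, limma adjusted p = 0.118). Platelet markers, given because Itga2b and Itgb3 form the platelet receptor, were higher in 3 of 4 measured genes, against 28.9% of all genes. Below the median signal, where 3 of the 4 lay, 46.9% of all genes were higher. When DC arrays 1 and 5 labelled Hes3 siRNA were left out, 0 platelet markers passed in limma. Their summed linear signal was 657 to 780 in DC arrays labelled Hes3 siRNA and 502 to 587 in the DC scrambled arrays. Of these 4 genes, 3 were under the 40th percentile (Treml1 was not), and their part in the result was not tested.

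Itga4 and Itga9, which share ligands, again differed in direction. Itga4 read 8.05, 8.19, 8.08 and 8.24 in DC arrays labelled Hes3 siRNA and 8.27, 8.49, 8.33 and 8.37 in DC scrambled arrays. The arrays labelled Hes3 siRNA were all below the scrambled arrays (-0.23 ± 0.0664 (SE; limma adjusted p = 0.0148)). Itga9 read 7.11, 7.07, 7.19 and 6.99 in DC arrays labelled Hes3 siRNA and 6.76, 6.84, 6.80 and 6.81 in DC scrambled arrays, and here they were all above (0.29 ± 0.0658 (SE; limma adjusted p = 0.00563)). The laminin-binding chain Itga7 read 8.24, 8.21, 8.15 and 8.40 in DC arrays labelled Hes3 siRNA and 7.83, 8.09, 7.84 and 8.01 in DC scrambled arrays, without overlap (0.31 ± 0.0764 (SE; limma adjusted p = 0.00741)). Itga6 and Itga3 did not pass, with -0.10 and 0.08 (limma adjusted p = 0.359 and 0.330). The Itga3 arrays read 8.78, 8.78, 8.80 and 8.68 in DC arrays labelled Hes3 siRNA and 8.54, 8.73, 8.79 and 8.65 in DC scrambled arrays, and the groups overlapped.

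Of the collagen-binding chains, Itga11 and Itga10 were higher. Itga11, a receptor of fibroblasts for collagen I, read 7.83, 7.76, 7.90 and 7.58 in DC arrays labelled Hes3 siRNA and 7.40, 7.57, 7.36 and 7.44 in DC scrambled arrays. Array 7 was the lowest of the arrays labelled Hes3 siRNA and still above the scrambled arrays (0.33 ± 0.0844 (SE; limma adjusted p = 0.00887)). Itga10, known from cartilage, read 8.54, 8.36, 8.58 and 8.59 in DC arrays labelled Hes3 siRNA and 8.16, 8.38, 8.25 and 8.24 in DC scrambled arrays, a log2 fold change of 0.26 ± 0.0696 (SE; limma adjusted p = 0.00963). Its groups overlapped through array 2. Itga1 (-0.11) and Itga2 (0.11) did not pass. Fibroblast markers were higher in 8 of 10 genes, against 28.9% of all genes. Below the median signal, where 7 of the 10 lay, 46.9% of all genes were higher. The summed linear signals of the markers were 2398 to 2808 in DC arrays labelled Hes3 siRNA and 2007 to 2177 in the DC scrambled arrays. Dcn and Lum did not pass, 6 of the 10 were under the 40th percentile, and their part in the result was not tested. When DC arrays 1 and 5 labelled Hes3 siRNA were left out, 0 fibroblast markers passed in limma. All genes below the median signal had a median log2 fold change of 0.17 with all arrays. For markers of another type in such cultures, more such cells, more RNA per cell and a shift of dim genes cannot be told apart.

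The leukocyte chains Itgal, Itgam, Itgax and Itgae were higher, and Itgad was not (-0.05). Itgax read 7.10, 6.84, 6.97 and 6.79 in DC arrays labelled Hes3 siRNA and 6.59, 6.63, 6.65 and 6.58 in DC scrambled arrays. Array 1 was the highest, and the groups did not overlap (0.31 ± 0.0748 (SE; limma adjusted p = 0.00683)). Itgal, Itgam and Itgae had 0.28, 0.26 and 0.20. Their beta partners Itgb2 and Itgb7 had 0.23 and 0.28 (limma adjusted p = 0.0137 and 0.00964). Leukocyte markers were higher in 6 of 9 genes, against 28.9% of all genes. Below the median signal, where 7 of the 9 lay, 46.9% of all genes were higher. When DC arrays 1 and 5 labelled Hes3 siRNA were left out, 0 leukocyte markers passed in limma. The summed linear signals of the markers were 1625 to 1749 in DC arrays labelled Hes3 siRNA and 1494 to 1598 in the DC scrambled arrays. The defining gene Ptprc had a mean of 5.96 over the 12 arrays, 7 of the 9 markers were under the 40th percentile, and their part in the result was not tested.

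Among beta chains, Itgb1 read 10.31, 10.51, 10.24 and 10.50 in DC arrays labelled Hes3 siRNA and 10.64, 10.52, 10.51 and 10.61 in DC scrambled arrays. The nearest arrays of both groups round to 10.51 and did not cross, a log2 fold change of -0.18 ± 0.0732 (SE; limma adjusted p = 0.0491). This call held in 8 of 22 alternatives, whereas those of Itga4 and Itgav held in 20 and 18. Itgb4 read 8.57, 8.36, 8.51 and 8.37 in DC arrays labelled Hes3 siRNA and 8.22, 8.23, 8.31 and 8.22 in DC scrambled arrays, a difference of 0.21 ± 0.0696 (SE; limma adjusted p = 0.0261). Itgb3 had 0.26 and Itgb6, known from epithelia, 0.17 (limma adjusted p = 0.0110 and 0.0387). Itgb5 (-0.12) and Itgb8 (0.02) did not pass. Hemidesmosome and squamous markers were higher in 4 of 6 genes, against 28.9% of all genes. Below the median signal, where 4 of the 6 lay, 46.9% of all genes were higher. When DC arrays 1 and 5 labelled Hes3 siRNA were left out, 0 of these markers passed in limma. Their summed signals were 3216 to 3406 in DC arrays labelled Hes3 siRNA and 3042 to 3432 in the DC scrambled arrays. The part of these markers in the result was not tested.

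Signal level went with direction in DC as well. With all genes in 4 equal groups from dim to bright, median log2 fold changes were 0.15, 0.21, -0.03 and -0.15. Among genes below the median signal 46.9% were higher and 3.7% lower, against 17 and 0 of the 24 members there. Among genes above it 11% were higher and 32.8% lower, against 4 and 3 of 12 members. Set against genes of like signal, 24 of the 36 members had a fold change above the median of their level. For DC over CC with Hes3 siRNA 18 of the 36 did. Itga4 was -0.23 where genes of like signal had a median of 0.02, and Itgb1 was -0.18 where they had -0.15. Itga1, Itga6 and Itgad, which did not pass, lay further below the median of their level than Itga4 did. Arrays of the 2 groups did not overlap for 25 members (22 higher, 3 lower), against 40.9% of all genes. Over the 24 members below the median gene, the median deviation from the mean of 12 arrays was 0.26, 0.09, 0.19 and 0.04 in DC arrays labelled Hes3 siRNA and -0.12 to -0.05 in the DC scrambled arrays. Arrays 1 and 5 thus stood highest for these members, as they did on the first principal component.

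**Figure D4:**
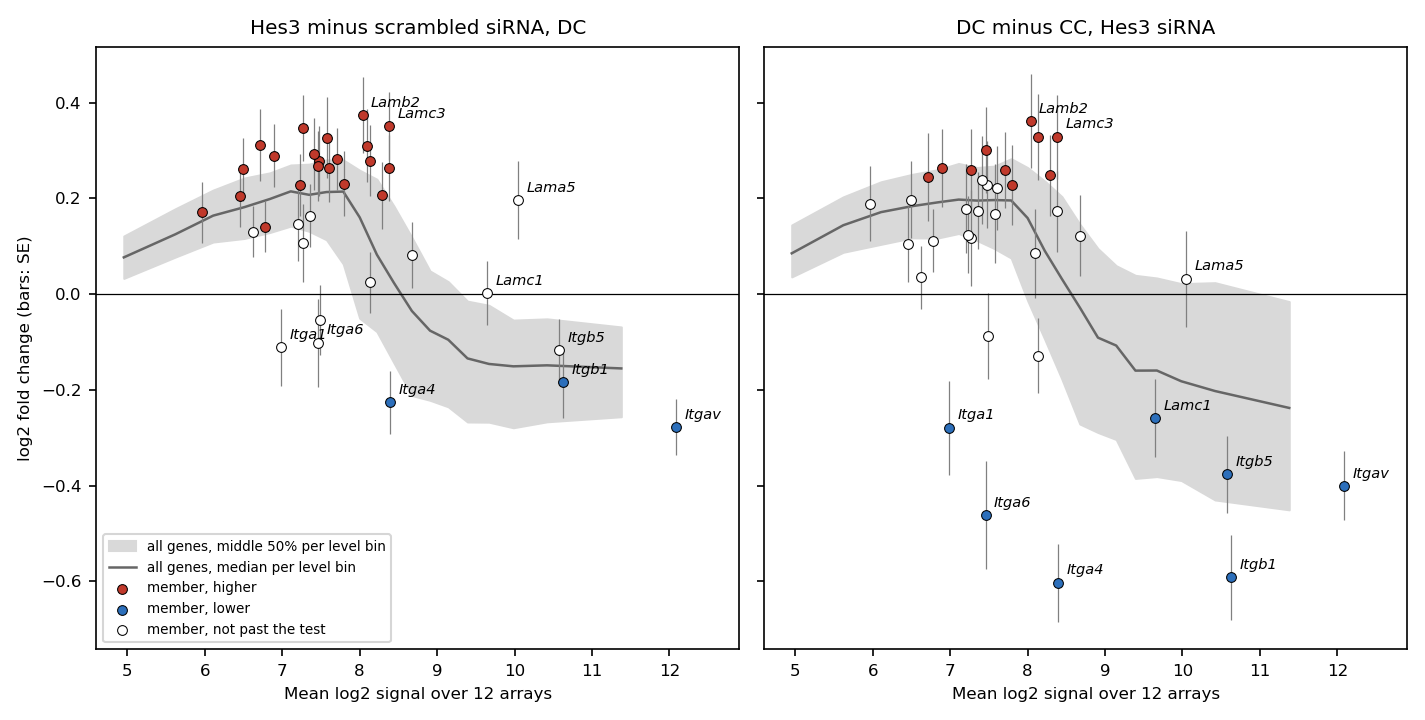
Log2 fold change against mean log2 signal for the siRNA labels in DC and for DC over CC with Hes3 siRNA. Members are points with SE bars, coloured where they passed the test, and the line and band are the median and the middle 50% of all genes of like signal. The line is above 0 for dim genes and below 0 for bright ones, and Itga4 lies below it in both panels.

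Endothelial and duct markers were compared because vessel and duct cells make laminins in the pancreas. In DC they were higher with the Hes3 siRNA label in 4 of 8 and 3 of 4 genes, against 28.9% of all genes. All 8 endothelial and 2 of the 4 duct genes lay below the median signal, where 46.9% of all genes were higher. Without DC arrays 1 and 5 labelled Hes3 siRNA, 0 endothelial and 0 duct markers passed in limma. Their summed linear signals were 1173 to 1340 (endothelium) and 943 to 1044 (duct) in DC arrays labelled Hes3 siRNA, against 1013 to 1115 and 795 to 876 in the DC scrambled arrays. Of the 8 endothelial genes 6 were under the 40th percentile, as were 2 of the 4 duct genes. Beta cell markers were lower in 4 of 11 genes (Neurod1, Nkx6-1, Slc30a8 and Iapp) and higher in 1 (Slc2a2). Above the median signal, where 10 of the 11 lay, 32.8% of all genes were lower and 11% higher. When DC arrays 1 and 5 labelled Hes3 siRNA were left out, 1 beta cell marker was lower and 0 were higher. Their sums were 60692 to 66094 in DC arrays labelled Hes3 siRNA and 66929 to 69725 in the DC scrambled arrays. The part of these lists in the results on laminins was not tested.

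In CC, no member passed the test between the siRNA labels. In limma 0 of 36 passed, as did 0% of all genes, and 0 members had an unadjusted p under 0.05. The members with the smallest p were Itgae and Itgb8 among higher values and Lama5 and Itga10 among lower ones. Itgae read 6.41 and 6.57 in CC arrays labelled Hes3 siRNA and 6.42 and 6.21 in CC scrambled arrays, a difference of 0.17 ± 0.0920 (SE; limma adjusted p = 1). Itgb8 read 8.30 and 8.20 in CC arrays labelled Hes3 siRNA and 8.07 and 8.12 in CC scrambled arrays, a difference of 0.15 ± 0.0912 (SE; limma adjusted p = 1). Lama5 read 10.09 and 10.05 in CC arrays labelled Hes3 siRNA and 10.33 and 10.04 in CC scrambled arrays, a difference of -0.11 ± 0.116 (SE; limma adjusted p = 1). The groups overlapped for Itgae and Lama5 and did not for Itgb8. Itga10 had -0.04 ± 0.0984 (SE; limma adjusted p = 1), with arrays that overlapped, and the signs of Lama5 and Itga10 each turned when a single array was left out. In all, 34 of the 36 values were above 0, with a median of 0.08 over members and 0.02 over all genes. The median over members was 0.0105 without CC scrambled array 2 and 0.130 without CC scrambled array 1. CC scrambled array 2, which stood apart on the first principal component, had a median deviation of -0.20 over the 24 members below the median gene. Arrays did not overlap for 11 members, against 26.9% of all genes. Itgb1, Itga4 and Itgav, lower with the Hes3 siRNA label in DC, had 0.11, 0.12 and 0.13 in CC.

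The difference of the siRNA contrasts, DC minus CC, asked whether the siRNA labels differed more in one medium than in the other. It is the same contrast as the test above of the difference between both comparisons of DC with CC, and not a further test. Among members 0 passed in limma, and without CC scrambled array 2 there were 2 higher and 1 lower, where 10.3% of all genes passed. The lowest values were Itgav (-0.41 ± 0.102 (SE; limma adjusted p = 0.177)) and Itga4 (-0.35 ± 0.115 (SE; limma adjusted p = 0.201)), and the highest were Lamb2 (0.32 ± 0.138 (SE; limma adjusted p = 0.264)) and Lama5 (0.31 ± 0.142 (SE; limma adjusted p = 0.279)). The calls in DC were thus not shown to be particular to DC.

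**Figure D5:**
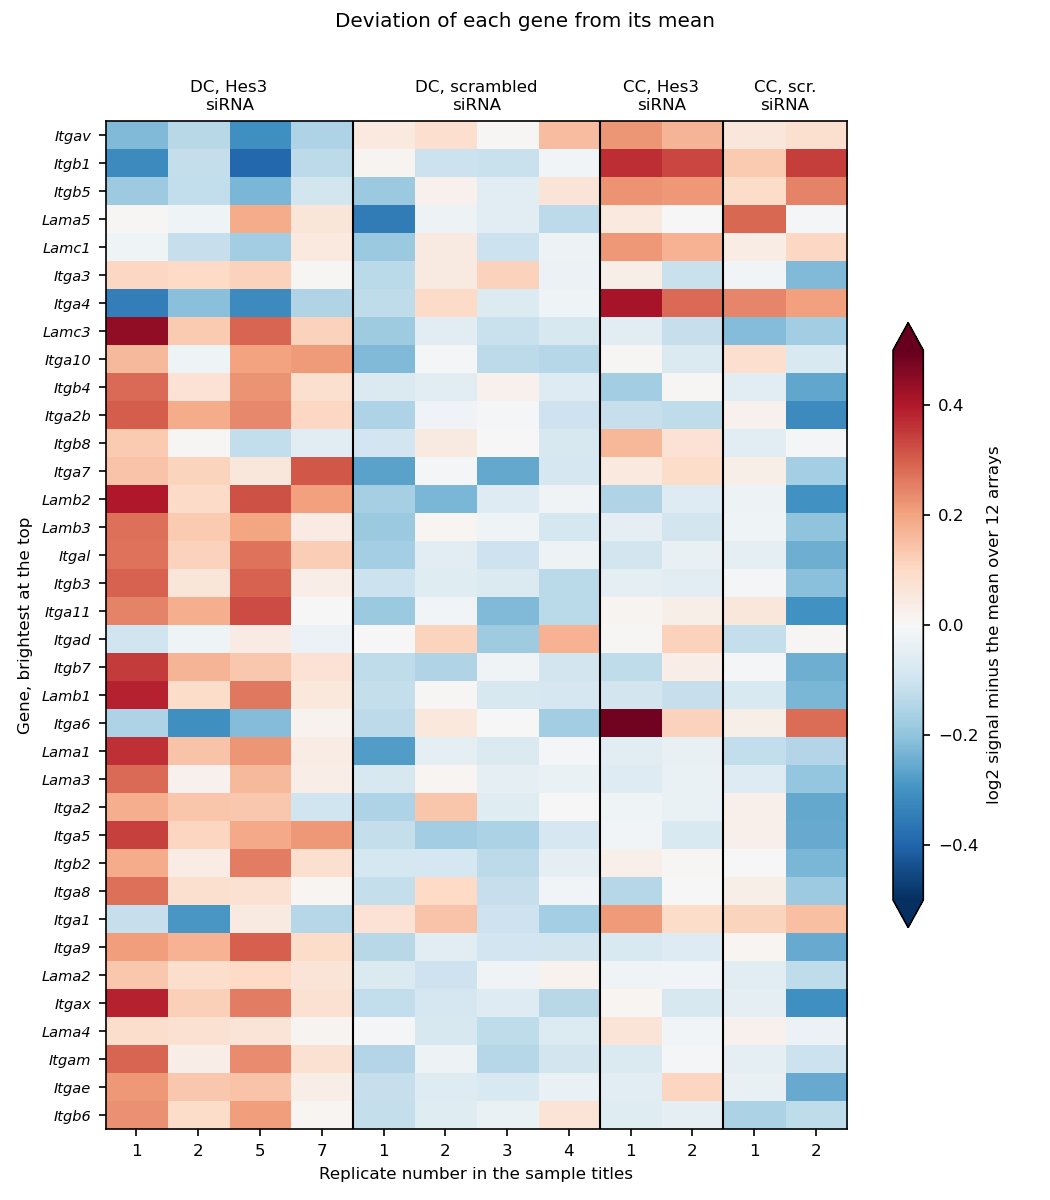
Deviation of each member from its mean over the 12 arrays, on the log2 scale, by array, with the brightest members at the top. The DC arrays labelled Hes3 siRNA, arrays 1 and 5 above all, are above the mean for most members, while Itgav, Itgb1, Itgb5 and Itga4 are below it there.

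Genes of most other basement membrane proteins had higher signals in DC with the Hes3 siRNA label. Between siRNA labels in DC, 12 of 13 measured partners rose and 0 fell, where 28.9% of all genes and 46.9% of those below the median signal (7 of the 13 partners lay there) were higher. Without DC arrays 1 and 5 labelled Hes3 siRNA 0 passed in limma, and 10 had an unadjusted p under 0.05. Agrn (agrin), the brightest of them, did not pass (-0.10 ± 0.0563 (SE; limma adjusted p = 0.153)). The collagen IV chain genes Col4a6 (0.35 ± 0.0766), Col4a2 (0.32 ± 0.0869) and Col4a3 (0.32 ± 0.0815) and the laminin-binding Nid1 (0.31 ± 0.0818; all SE) had the largest differences, with limma adjusted p between 0.00494 and 0.0103. All 6 collagen IV chain genes passed. DC over CC with the Hes3 siRNA label gave 7 higher and 0 lower (0 and 0 without those arrays). Of all genes 21.2% were higher and 18.8% lower, and of those below the median signal 29.4% and 3.12%. The largest differences were those of Col4a3 and Col4a6 (0.32 each), Col4a1 (0.28) and Col4a5 (0.28). With scrambled siRNA 0 of 13 passed in limma and 2 had an unadjusted p under 0.05; Agrn had 0.23 and Col18a1 -0.24 (limma adjusted p = 0.0519 and 0.0691).

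Other integrin ligands included the members' own ligands outside the basement membrane. Fn1 (fibronectin) was higher in DC than in CC with scrambled siRNA, at 0.71 ± 0.124 (SE; limma adjusted p = 0.00162), and with the Hes3 siRNA label, at 0.49 ± 0.124 (SE; limma adjusted p = 0.00775). Tnc (tenascin C) was lower, at -0.74 ± 0.110 (SE; limma adjusted p = 0.000419) with scrambled siRNA and -0.56 ± 0.110 (SE; limma adjusted p = 0.00158) with the Hes3 siRNA label. Fn1 and Tnc were both dim, with means of 7.45 and 7.65 over the 12 arrays, under the 40th percentile of signal. These were the only 2 of 17 measured ligands to pass with scrambled siRNA. With the Hes3 siRNA label 5 were higher and 2 lower, against 21.2% and 18.8% of all genes. Below the median signal, where 15 of the 17 lay, 29.4% of all genes were higher in that comparison and 3.12% lower. Between siRNA labels in DC, 9 were higher and 1 lower, against 28.9% and 18.3% of all genes, and 15 of the 17 lay below the median signal, where 46.9% of all genes were higher. Without DC arrays 1 and 5 labelled Hes3 siRNA these counts were 1 higher and 1 lower for DC over CC, and 0 higher and 1 lower between siRNA labels. The lower one, Edil3, which encodes a ligand of Itgav receptors, had the largest difference, -0.98 ± 0.174 (SE; limma adjusted p = 0.00302), and its SD among DC arrays labelled Hes3 siRNA was 0.482. Tnc (0.33), Vwf (0.34) and Ccn2 (0.30) were among the higher ones.

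The genes of proteins that tie integrin tails to actin did not move one way. Of 25 measured, 4 were higher and 6 lower between siRNA labels in DC, against 28.9% and 18.3% of all genes. Above the median signal, where 22 of the 25 lay, 11% of all genes were higher and 32.8% lower. Without DC arrays 1 and 5 labelled Hes3 siRNA 0 passed in limma, and 8 had an unadjusted p under 0.05. Lims1 (-0.44 ± 0.0947 (SE; limma adjusted p = 0.00473)) and Fermt2, the kindlin that activates integrins in most tissues (-0.38 ± 0.0681 (SE; limma adjusted p = 0.00302)), were lower. Tns1, a tensin (0.39 ± 0.0736 (SE; limma adjusted p = 0.00331)), and Fermt3, the kindlin of blood cells (0.38 ± 0.0809 (SE; limma adjusted p = 0.00463)), were higher. In DC over CC with the Hes3 siRNA label 7 were higher and 5 lower (4 and 4 without those arrays). Of all genes 21.2% were higher and 18.8% lower, and of those above the median signal 13% and 34.5%. Among the lower ones were Parva (-0.66 ± 0.0889), Vcl (vinculin, -0.63 ± 0.123) and Lims1 (-0.62 ± 0.116; all SE), with limma adjusted p of 8.49e-05, 0.00162 and 0.00120. With scrambled siRNA 0 were higher and 3 lower: Parvb (-0.61 ± 0.0937), Ptk2b (-0.34 ± 0.0762) and Parva (-0.32 ± 0.0889; all SE), with limma adjusted p of 0.000591, 0.00936 and 0.0359. Of all genes 3.09% were higher and 5.45% lower there. Parvins and Lims1 form the complex with the integrin-linked kinase.

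Most genes of membrane partners of integrins and of other laminin receptors had lower signals in DC than in CC with the Hes3 siRNA label. With the Hes3 siRNA label 10 of 13 were lower and 0 higher, and with scrambled siRNA 4 were lower and 0 higher. Lower in these comparisons were 18.8% and 5.45% of all genes, and with the Hes3 siRNA label 34.5% of those above the median signal, where 12 of the 13 lay. With scrambled siRNA 951 of the 9969 genes above the median signal were lower. Without DC arrays 1 and 5 labelled Hes3 siRNA 7 were still lower with that label. Sdc2, a heparan sulfate carrier, had a larger difference than any member, at -1.50 ± 0.131 (SE; limma adjusted p = 2.21e-06) with the Hes3 siRNA label and -1.10 ± 0.131 (SE; limma adjusted p = 7.27e-05) with scrambled siRNA. Cd151, the tetraspanin that binds the laminin receptors Itga3 and Itga6, had -1.14 ± 0.0755 (SE; limma adjusted p = 2.87e-07) and -0.90 ± 0.0755 (SE; limma adjusted p = 3.11e-06) in the same order. The tetraspanin Cd9 had -1.0 ± 0.116 and -0.86 ± 0.116 (SE; limma adjusted p = 2.27e-05 and 0.000215). The median over the 13 genes was -0.35 with the Hes3 siRNA label and -0.19 with scrambled siRNA, against 0.09 and 0.02 over all genes.

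Between siRNA labels in DC, 5 of these 13 were lower and 1 higher, against 32.8% and 11% of all genes above the median signal, and without DC arrays 1 and 5 labelled Hes3 siRNA 1 was lower. Cd47, which associates with Itgav and Itgb3 receptors, was the lowest (-0.55 ± 0.0772 (SE; limma adjusted p = 0.00168)), followed by Bcam, a receptor for Lama5 laminins (-0.28 ± 0.0716 (SE; limma adjusted p = 0.00805)), and Sdc3 (-0.27 ± 0.0779 (SE; limma adjusted p = 0.0129)). Sdc4, a syndecan of focal adhesions, was the higher one (0.33 ± 0.101 (SE; limma adjusted p = 0.0186)). In CC 0 genes passed in limma in any of the 4 lists between siRNA labels, and 0 had an unadjusted p under 0.05.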

How the data were processed

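The authors deposited 1 table of log2 values, 1 per probe set and array, for 35556 probe sets. That they are log2 follows from their range, 3.94 to 14.4, and the authors' summarization and normalization are not given in the sources used here. The 12 columns were matched to the labels by sample, with 0 unused. In the 2016 annotation of the platform, 21789 probe sets had 1 gene symbol, 1621 had several and 12146 had none. The probe set with the highest mean stood for a gene, which left 19938 genes. A reference gene table held the Entrez identifiers of 21698 of the 21789 probe sets with 1 symbol and changed 0 symbols. Of the members, Itgad had more than 1 probe set.

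Groups came from the sample titles. Differences were fitted with limma 3.58.1 in R 4.3.3 by its moderated linear models, which estimated 4 group means from 12 arrays, 8 residual and 7.62 prior degrees of freedom, and 5 contrasts. P-values are two-sided, with Benjamini-Hochberg adjustment across the 19938 genes, with a threshold of 0.05, which is what passing the test means. The fit was tested on simulated data. No filter was set on dim genes. Marker lists were summed as linear signals, 2 to the power of the log2 value. Motifs were searched with Python 3.11.15.

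The members, the lists, the tests and the rule for named genes were chosen with earlier results of these data known. The rule gave array values for up to 6 members past the threshold in each direction of a comparison (or the 2 with the smallest p), for the 4 brightest laminins and 6 brightest integrins, and for Hes3. From each list of other pathway genes it named up to 4 past the threshold, or the 2 with the smallest p. The listed values of other members describe the rest of the family. Alternatives were 3 other normalizations (quantile, median centring, cyclic loess), a filter on dim genes, trended and robust eBayes, a fit to the compared arrays alone, averaged probe sets, array weights, a replicate block, a 1.5-fold minimum, and fits without single arrays or without both DC arrays 1 and 5 of the Hes3 siRNA label.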

Additional observations from a re-analysis of the deposited data

Results flagged for a closer look

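Among the 36 members, the 2 groups of 4 arrays were each searched for an array far from the other 3, which made 72 groups of values, of which chance sets apart about 1 in 20. In 2 of them array 7 of the DC arrays labelled Hes3 siRNA lay below the rest. For Itga3, the alpha chain of a laminin receptor, it read 8.68, where the other arrays of the group read 8.78 to 8.80. For the collagen receptor chain Itga2 it read 7.17, where the others read 7.41 to 7.45.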

How the results depend on the processing

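Between siRNA labels in DC, 24 members passed as deposited, 11 with quantile and 7 with cyclic loess normalization, 10 without genes under the 40th percentile (16 members left), and 0 without DC arrays 1 and 5 labelled Hes3 siRNA, at a minimum of 1.5-fold, and with the replicate number as a block. Leaving out single arrays gave 18 to 26. For DC over CC with Hes3 siRNA the 17 became 8 (quantile), 9 (median centring), 8 (cyclic loess), 11 (dim genes left out), 9 (replicate block), 6 (without arrays 1 and 5) and 2 (1.5-fold), and 5 to 22 without single arrays. With scrambled siRNA the 0 became 2 with median centring, with dim genes left out or without arrays 1 and 5, and 1 with cyclic loess or with only the arrays compared, and 0 to 1 without single arrays. In CC it was 0 in all alternatives run, and for the difference of the siRNA contrasts 0 to 3 without single arrays. Without single arrays the CC value of Lama5 ran from -0.26 to 0.0332 and that of Itga10 from -0.12 to 0.0404 (0.0015 without CC array 2 labelled Hes3 siRNA), both above 0 without CC scrambled array 1. The DC value of Lama2, a log2 fold change of 0.14 as deposited, was -0.0279 with quantile and -0.0528 with cyclic loess normalization. Of the other values for named members, 838 kept direction and side of the threshold, 252 lost the threshold and 12 gained it. Over all genes the 9408 calls between siRNA labels in DC became 4707 (quantile), 4111 (cyclic loess), 5436 (dim genes left out), 620 (replicate block), 331 (without arrays 1 and 5) and 196 (1.5-fold), and 5754 to 10476 without single arrays (5754 without DC scrambled array 1, 5881 and 6064 without DC arrays 5 and 1 labelled Hes3 siRNA), with 61.3% higher as deposited, 50.7% with quantile, 36.7% with median centring and 38.8% with cyclic loess. For DC over CC, 1702 calls with scrambled siRNA became 1054 (array weights), 804 (replicate block), 347 (1.5-fold) and 742 (without CC scrambled array 2), with 36.2% higher as deposited and 47.7% with quantile. The 7986 with Hes3 siRNA became 5206 (cyclic loess), 4051 (replicate block), 3631 (without arrays 1 and 5), 1103 (1.5-fold), and 3410 and 2357 without CC array 1 or 2 labelled Hes3 siRNA, with 53% higher as deposited and 17.3% with median centring. The cause was not tested, save where fewer genes or arrays entered. Deviations of arrays with the same replicate number correlated at -0.44 to 0.54, with both signs, so the block stands only for a shared number. For members near background, signal over background limits what can be seen.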
